A study of Rattus norvegicus with 18 samples.

Results

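The data described here are the array signals of 10 genes of drug metabolism in the rat jejunum: 7 enzymes (Cyp1a1, Cyp2j4, Cyp3a9, Cyp3a18, Ugt2b15, Ugt2b35 and Sult6b2) and 3 receptors (Nr1i2, Nr1i3 and Ahr). They were taken as the probe sets whose annotation gave exactly 1 symbol equal to 1 of these names, which found all 10 genes, among 14217 genes with a named probe set. Ahr had 2 probe sets and the others had 1. The study gave male Sprague Dawley rats, aged 6 to 8 weeks, an inhibitor of the cell cycle kinases CDK4 and CDK6 by mouth once daily and profiled scrapings of the jejunal mucosa on 18 arrays, 3 in each of 6 groups. There was 1 group for vehicle, 1 for ribociclib (300 mg/kg/day), a pair for abemaciclib (36 and 120 mg/kg/day) and a pair for palbociclib (30 and 100 mg/kg/day). Vehicle rats received methyl cellulose, in which palbociclib was given, whereas abemaciclib and ribociclib were given in hydroxypropyl methylcellulose with tween and an acidic citrate buffer. For those compounds, compound and vehicle cannot be told apart in a comparison with the vehicle arrays. Dosing lasted 4 or 15 days in the study; the duration behind each array is not labelled, and neither is its animal. The p-values therefore measure the spread between these arrays.

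The absorptive cells of the small intestine meet drugs and dietary compounds before the liver does. Cytochrome P450 enzymes oxidise such compounds, and UDP-glucuronosyltransferases and sulfotransferases then attach a sugar acid or a sulfate that makes them easier to excrete. Much of this machinery is set by receptors that sense foreign compounds. Nr1i2 encodes the pregnane X receptor (PXR) and Nr1i3 the constitutive androstane receptor (CAR), both of which bind DNA with the retinoid X receptor and regulate Cyp3a genes, and Ahr encodes the aryl hydrocarbon receptor, whose best known target is Cyp1a1.

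The promoters of the Ugt2b pair and the Cyp3a pair among the 10 genes are printed to show what stands upstream of their starts. Windows reaching from 250 bases before to 50 bases after the start were available from RefSeq (GRCr8) for 9 of the 10 genes, Cyp1a1 being unlisted. The 120 bases before the start of Ugt2b15 (chr14:21122746-21122865, plus strand) and Ugt2b35 (chr14:21208321-21208440, plus strand) are given 5′ to 3′, with runs of at least 10 bases that both share in capitals.
Ugt2b15: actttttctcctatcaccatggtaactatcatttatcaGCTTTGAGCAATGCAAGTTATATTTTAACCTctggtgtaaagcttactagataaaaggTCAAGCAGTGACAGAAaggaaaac
Ugt2b35: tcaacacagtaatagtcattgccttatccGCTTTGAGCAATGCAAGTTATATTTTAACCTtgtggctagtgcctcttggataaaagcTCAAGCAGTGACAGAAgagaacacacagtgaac
The shared runs cover 47 bases of each stretch, and the longest is 31 bases. That run was found in 5 of 33469 rat promoter windows, those of Ugt2b15, Ugt2b35, Ugt2b37, Ugt2b and LOC134478834. Ugt2b15 and Ugt2b35 lie on the same chromosome with 2 gene starts between them, those of LOC120096526 and Ugt2b37.

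The same stretches of the pair of Cyp3a genes, Cyp3a9 (chr12:21960161-21960280, minus strand) and Cyp3a18 (chr12:13994192-13994311, plus strand), are shown because PXR and CAR are known to bind pairs of the hexamers AGTTCA or AGGTCA. Capitals mark either hexamer, searched on both strands.
Cyp3a9: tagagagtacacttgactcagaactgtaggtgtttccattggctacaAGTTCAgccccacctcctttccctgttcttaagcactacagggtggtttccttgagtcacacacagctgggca
Cyp3a18: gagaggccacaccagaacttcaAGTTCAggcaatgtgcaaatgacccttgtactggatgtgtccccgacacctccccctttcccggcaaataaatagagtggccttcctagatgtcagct
AGTTCA was present in the windows of 5 of the 9 genes (Cyp2j4, Cyp3a9, Cyp3a18, Sult6b2 and Nr1i2), against 14.5% of all windows. AGGTCA was present in 1 of the 9 (Ugt2b15), against 16.2%, and GCGTG, the core of the AHR binding motif, in 0 of the 9, against 29.7%. These are matches of letters and not measured binding.

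Values are log2 signals, so a difference of 1 is a doubling, and levels of different genes are not compared because each probe set has its own response. A gene was called changed where limma's p, adjusted by Benjamini and Hochberg over all 14217 genes, was under 0.05. In a test of any difference between vehicle and the 5 treated groups, 5 of the 10 genes were called (Cyp2j4, Cyp3a9, Cyp3a18, Ugt2b15 and Nr1i3), where 22.6% of all genes were. The genes for absorptive cells were bright on all arrays, with means over 13 enterocyte genes of 13.55 to 13.66 on the vehicle arrays and 13.04 to 13.49 on those of abemaciclib at 120 mg/kg/day. Means over 6 hepatocyte genes were 4.57 to 5.11 and over 6 pancreatic acinar genes 4.98 to 5.37 on all arrays, below the array medians of 5.41 to 5.51.

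**Figure D1:**
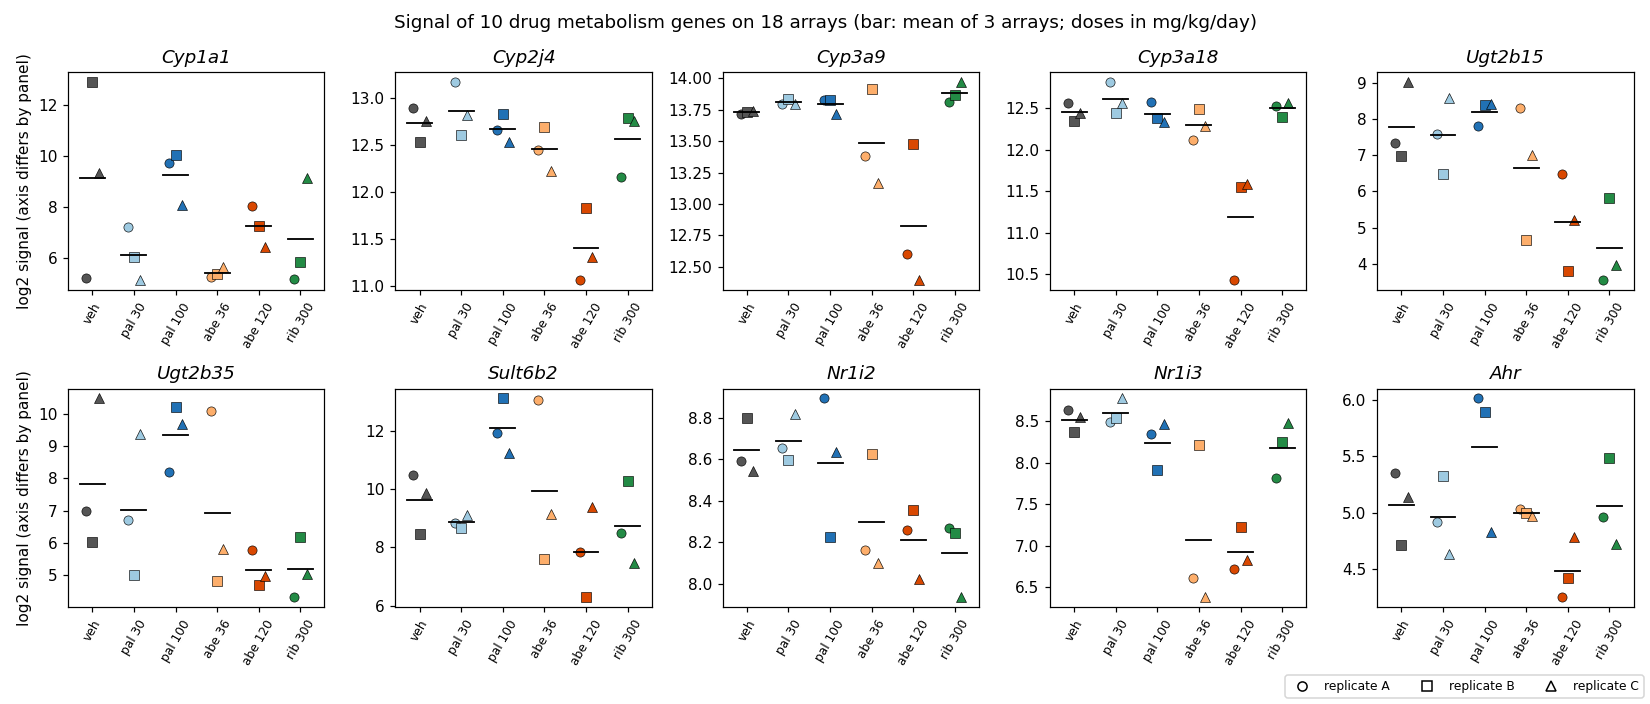
Log2 signal of the 10 genes on each of 18 arrays, by group (veh, vehicle; pal, palbociclib; abe, abemaciclib; rib, ribociclib; doses in mg/kg/day), with a bar at each group's mean of 3 arrays and an axis of its own for each gene. Cyp2j4, Cyp3a9, Cyp3a18 and Nr1i3 lie lower on all 3 arrays of abemaciclib at 120 mg/kg/day than on any vehicle array, whereas Cyp1a1 ranges from 5.20 to 12.92 within vehicle.

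Abemaciclib at 120 mg/kg/day gave the clearest difference from vehicle. Cyp2j4, Cyp3a9, Cyp3a18, Ugt2b15 and Nr1i3 fell, and none of the 10 genes rose. The 5 lower calls compare with 8.41% of all genes called lower, and the 0 higher calls with 9.60% called higher. All 10 differences were negative, with a median of -1.46, where the median of all genes was -0.02. On 7 of the 10 genes every treated array lay below every vehicle array, which held for 18.7% of all genes. The 10 genes were chosen with earlier results of these data known. These counts therefore describe the 10 and do not test drug metabolism genes as a class.

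Cyp2j4, a P450 of the family that oxidises arachidonic acid, had signals of 12.89, 12.53 and 12.76 on the vehicle arrays and 11.06, 11.83 and 11.31 on those of abemaciclib at 120 mg/kg/day. The groups did not overlap, and array A was the lowest of all 18. The difference was -1.33 (SE 0.21, limma adjusted p = 0.0005392), a 2.51-fold lower signal. With abemaciclib at 36 mg/kg/day the arrays read 12.45, 12.69 and 12.22, and the difference from vehicle was -0.27 (adjusted p = 0.6573). The higher dose lay below the lower dose by more than the spread (-1.05, adjusted p = 0.006328). Palbociclib and ribociclib arrays ranged from 12.16 to 13.17, around the vehicle values, and none of their differences from vehicle was called.

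Cyp3a9 and Cyp3a18 belong to the P450 subfamily that metabolises the widest range of drugs. Cyp3a9 read 13.71, 13.74 and 13.74 with vehicle and 12.61, 13.48 and 12.39 with abemaciclib at 120 mg/kg/day. Array B stood nearer to vehicle than A and C, but all 3 were lower. The difference was -0.90 (SE 0.21, adjusted p = 0.007158). Signals near 13.7 are close to the top of the scale, the highest value of any probe set being 14.34. Cyp3a18 read 12.56, 12.34 and 12.44 with vehicle and 10.43, 11.56 and 11.59 with abemaciclib at 120 mg/kg/day. Here array A was the lowest, by about 1 log2 unit. The difference was -1.26 (SE 0.23, adjusted p = 0.001218).

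At the lower dose of abemaciclib neither Cyp3a gene was called against vehicle. Cyp3a9 read 13.38, 13.92 and 13.17 there, below all vehicle arrays on A and C and above them on B, a difference from vehicle of -0.24 (adjusted p = 0.7049). Cyp3a18 read 12.11, 12.49 and 12.29, below all vehicle arrays on A and C and within their range on B, a difference of -0.15 (adjusted p = 0.8499). Between the doses of abemaciclib, 2 genes were called lower at 120 mg/kg/day, Cyp2j4 and Cyp3a18 (-1.10, adjusted p = 0.007118), where 2.77% of all genes were called lower. Cyp3a9 differed by -0.66 and was not called (adjusted p = 0.06892). Fitted on the abemaciclib arrays alone, neither Cyp2j4 (adjusted p = 0.05996) nor Cyp3a18 (adjusted p = 0.1191) passed.

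Nr1i3, the gene of CAR, was the only receptor of the 3 to be called against vehicle. It read 8.63, 8.37 and 8.55 with vehicle and 6.72, 7.22 and 6.83 with abemaciclib at 120 mg/kg/day, without overlap. The difference was -1.59 (SE 0.35, adjusted p = 0.005219), a 3.01-fold lower signal. At 36 mg/kg/day arrays A and C read 6.61 and 6.39, as low as at the higher dose, and array B read 8.21, just below vehicle. That difference was -1.45 (adjusted p = 0.04434), and Nr1i3 was the only 1 of the 10 genes called at this dose, where 1.58% of all genes were called lower. The call at 36 mg/kg/day held in 5 of 18 fits with 1 array left out, and ended without any 1 of the vehicle arrays (adjusted p = 0.1221 to 0.1557) and without array A (0.2197) or C (0.177) of its own group. Without array B of that group the difference was -2.02 (adjusted p = 0.0006858). Beside this call, the mean of 9 T and NK cell genes was 6.88 to 7.18 at 36 mg/kg/day against 8.13 to 8.49 with vehicle. Of those 9, 4 were called lower. The mean of 6 goblet cell genes read 13.26, 12.56 and 13.25 on arrays A, B and C there, against 12.30 to 12.66 with vehicle. None of the 6 was called. Over the 18 arrays Nr1i3 correlated with the goblet mean at r = -0.93, with that of 4 stem cell genes at -0.841 and with the T and NK mean at 0.718. For the deviations within groups these were -0.837, -0.361 and 0.195. With the mean of 9 proliferation genes r was -0.73 (deviations -0.591), and with that of 13 enterocyte genes 0.684 (deviations 0.457). Of the 6 goblet genes, 3 had negative differences from vehicle at 120 mg/kg/day and 0 at 36 mg/kg/day. The part of these markers in the Nr1i3 difference was not tested. Between the doses Nr1i3 differed by -0.15 (95% interval -0.89 to 0.60, adjusted p = 0.8627).

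Nr1i2, the gene of PXR, varied little. It read 8.59, 8.80 and 8.54 with vehicle, 8.26, 8.35 and 8.02 with abemaciclib at 120 mg/kg/day and 8.27, 8.25 and 7.94 with ribociclib. Both treated groups lay below all vehicle arrays. The differences, -0.43 (95% interval -0.86 to -0.0032, adjusted p = 0.1647) and -0.50 (-0.92 to -0.06, adjusted p = 0.1821), were not called.

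Ahr was dim. Its brighter probe set read 5.35, 4.71 and 5.14 with vehicle, 4.26, 4.42 and 4.78 with abemaciclib at 120 mg/kg/day and 6.01, 5.89 and 4.83 with palbociclib at 100 mg/kg/day, on both sides of the array medians. Against vehicle the difference for abemaciclib at 120 mg/kg/day was -0.58 (adjusted p = 0.1783). The second probe set read 4.29 to 4.90 on all 18 arrays and was called in none of the 10 comparisons.

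**Figure D2:**
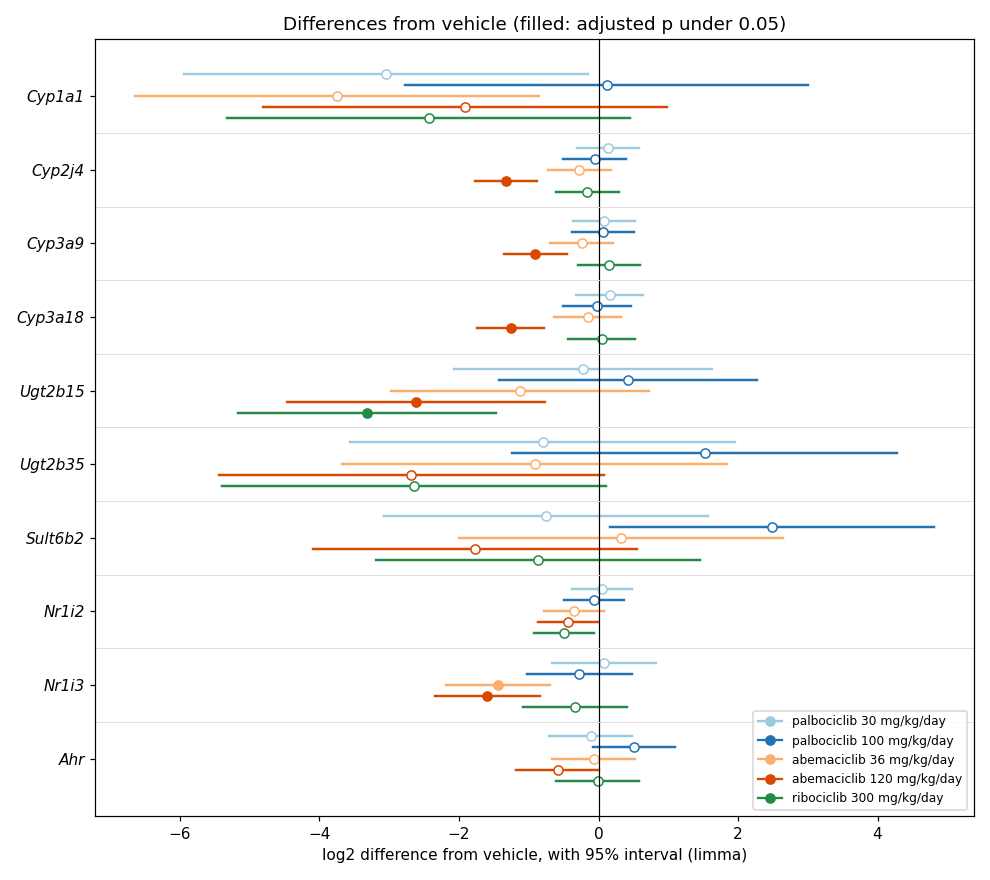
Log2 difference from vehicle of each gene in the 5 treated groups (points) with its 95% interval from limma (lines); filled points had an adjusted p under 0.05. The filled points are 5 genes for abemaciclib at 120 mg/kg/day, Nr1i3 for abemaciclib at 36 mg/kg/day and Ugt2b15 for ribociclib, and the intervals of Cyp1a1, Ugt2b15, Ugt2b35 and Sult6b2 are the widest.

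The conjugating enzymes spread far more between arrays of 1 group. Their pooled standard deviation within groups was 1.84 for Ugt2b35, 1.55 for Sult6b2 and 1.23 for Ugt2b15, and only 13, 23 and 56 of the 14217 genes, respectively, had a larger one. Those of Cyp2j4, Cyp3a9, Cyp3a18, Nr1i2, Nr1i3 and Ahr lay between 0.22 and 0.47.

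Ugt2b15, a glucuronosyltransferase that conjugates steroids and phenols, read 7.33, 6.98 and 9.02 with vehicle and 3.56, 5.83 and 3.97 with ribociclib. All ribociclib arrays lay below all vehicle arrays. The difference was -3.32 (SE 0.87, adjusted p = 0.04505), and Ugt2b15 was the only 1 of the 10 genes called for ribociclib, where 2.74% of all genes were called lower. With abemaciclib at 120 mg/kg/day it read 6.48, 3.80 and 5.21, again below all vehicle arrays (-2.61, SE 0.87, adjusted p = 0.04808). Both calls were narrow. Each held in 6 of 18 fits with 1 array left out, and each ended without vehicle array A, B or C; without array C, the vehicle array with the highest signal, the adjusted p was 0.1833 for ribociclib and 0.2166 for abemaciclib. They also ended without ribociclib array A (0.07458) or C (0.1391), and without array B (0.1774) or C (0.09747) of abemaciclib at 120 mg/kg/day, respectively. Several treated arrays read below the array medians, so the size of these differences rests on signals not shown to be above background.

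Ugt2b35, of the same family, read 7.00, 6.03 and 10.47 with vehicle, 5.77, 4.71 and 4.97 with abemaciclib at 120 mg/kg/day and 4.33, 6.19 and 5.04 with ribociclib. Vehicle array C stood more than 3 log2 units above the other vehicle arrays. The differences of -2.68 (adjusted p = 0.183) and -2.65 (adjusted p = 0.2668) were not called. Across the 18 arrays Ugt2b35 and Ugt2b15 followed each other, with a Pearson r of 0.88 and a Spearman rho of 0.938, and an r of 0.843 for the deviations from group means. The arrays share groups and processing, and genes as alike as these may share part of the signal of their probe sets.

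Sult6b2, a cytosolic sulfotransferase, read 10.48, 8.47 and 9.87 with vehicle and 11.91, 13.11 and 11.25 with palbociclib at 100 mg/kg/day. All palbociclib arrays of that dose lay above vehicle, and the difference of 2.48 (95% interval 0.16 to 4.80) was not called (unadjusted p = 0.03753, adjusted p = 0.6858). At 30 mg/kg/day it read 8.82, 8.66 and 9.09, and the difference between the doses was 3.23 (adjusted p = 0.9965). With abemaciclib at 36 mg/kg/day array A read 13.06, while B and C read 7.59 and 9.15. With abemaciclib at 120 mg/kg/day it read 7.83, 6.30 and 9.40 (-1.77, adjusted p = 0.3176).

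Several marker lists moved with these enzymes, among them genes of position along the gut. The mean of 3 ileal genes (Fabp6, Slc10a2 and Slc51a, which carry bile acids) was 7.88 to 8.97 with vehicle, 10.76 to 11.59 with abemaciclib at 120 mg/kg/day and 9.43 to 11.85 with ribociclib. It correlated with Ugt2b15 at r = -0.885, with Ugt2b35 at -0.874 and with Sult6b2 at -0.734 over the 18 arrays, and at -0.737, -0.825 and -0.625 for the deviations within groups. Fabp6, the ileal bile acid binding protein, carried most of this range, with 5.25 to 8.67 in vehicle, 12.95 to 13.56 in abemaciclib at 120 mg/kg/day and 10.60 to 14.24 in ribociclib. Slc51a stayed between 12.49 and 13.15 on all arrays.

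The mean of 5 proximal genes (Gata4, Pdx1, Onecut2, Cybrd1 and Slc40a1) was 6.09 to 7.32 with vehicle and 5.52 to 6.37 with abemaciclib at 120 mg/kg/day. Its highest values, 8.79 on array B of palbociclib at 100 mg/kg/day and 8.61 on array A of abemaciclib at 36 mg/kg/day, fell on the arrays where Sult6b2 was highest (13.11 and 13.06). The correlation of the list with Sult6b2 was r = 0.797, and 0.688 for the deviations within groups. No proximal gene was called against vehicle in any group. Pdx1 read 3.74 to 4.26 with vehicle and Onecut2 3.76 to 4.22 with abemaciclib at 120 mg/kg/day, below the array medians. The ileal list had 2 of 3 genes called higher with abemaciclib at 120 mg/kg/day and none with ribociclib. Markers of the deeper gut wall also went with Ugt2b15. The r of its deviations was -0.764 with the mean of 6 fibroblast genes and -0.708 with that of 6 smooth muscle genes, against -0.446 with each for Ugt2b35, and -0.63 and -0.499 for Sult6b2. Ribociclib array A, the lowest of the 18 for Ugt2b15 (3.56), was the highest for both lists (8.74 and 7.88), where vehicle arrays read 6.45 to 7.52 and 5.75 to 6.08. None of the genes of either list was called for ribociclib or for abemaciclib at 120 mg/kg/day against vehicle. The part of all these markers in the differences of the conjugating enzymes was not tested. For the P450s and Nr1i3 the r of deviations with the ileal mean was -0.407 for Cyp2j4, -0.011 for Cyp3a9, 0.095 for Cyp3a18 and 0.175 for Nr1i3. The difference between these correlations and those of the conjugating enzymes was not tested.

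**Figure D3:**
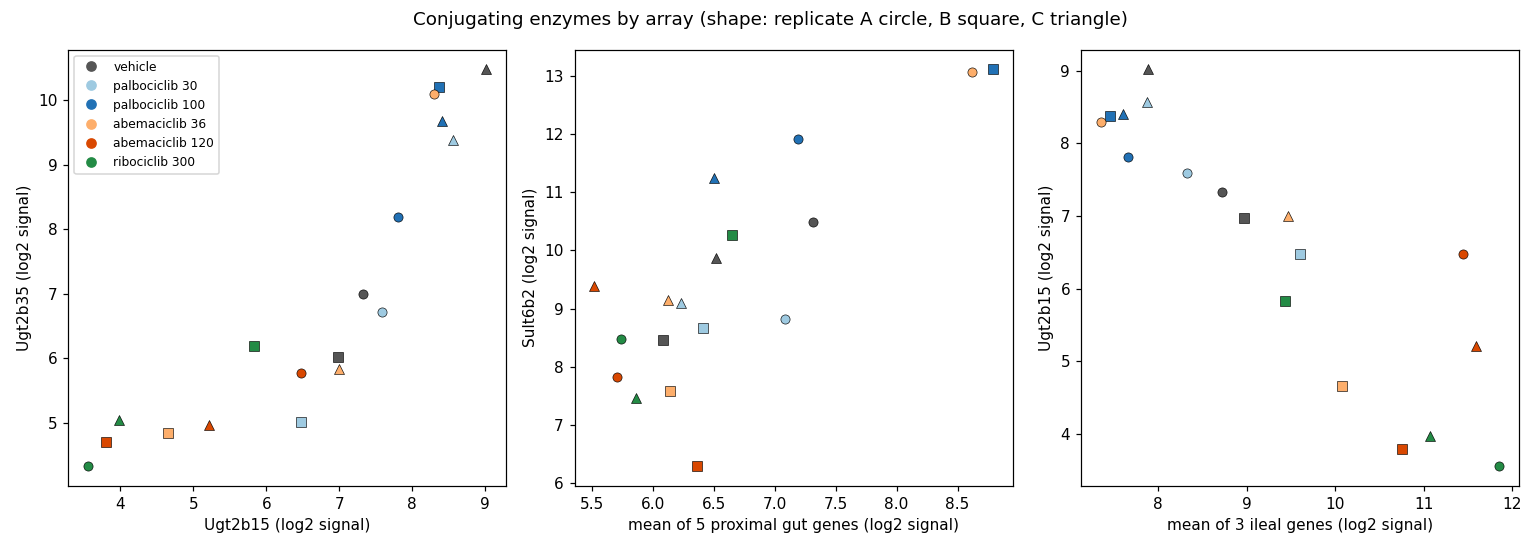
Log2 signal of Ugt2b35 against Ugt2b15 (left), of Sult6b2 against the mean of 5 proximal gut genes (middle) and of Ugt2b15 against the mean of 3 ileal genes (right), 1 point per array, coloured by group and shaped by replicate letter. Ugt2b35 follows Ugt2b15 (r = 0.88), and Ugt2b15 is lower where the ileal mean is higher (r = -0.885).

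Other cell markers also differed between abemaciclib at 120 mg/kg/day and vehicle, beside the lower P450 and Nr1i3 signals. The mean of 9 proliferation genes was 8.49 to 8.96 against 6.04 to 6.68, with 7 of 9 called higher. The mean of 9 T and NK cell genes was 5.36 to 6.18 against 8.13 to 8.49, with 7 of 9 called lower. The mean of 4 stem cell genes was 6.26 to 7.18 against 4.93 to 5.26, with 4 of 4 called higher. The mean of 5 macrophage genes was 4.50 to 5.25 against 5.51 to 6.20, with 2 of 5 called lower. The stem means with vehicle and the macrophage means with abemaciclib lay below the array medians. The sizes of these shifts therefore rest on signals not shown to be above background. Of 6 goblet cell genes 1 was called higher and 1 lower, with a median difference of 0.01, although the list's mean was 13.15 to 13.31 against 12.30 to 12.66. Of 13 enterocyte genes 2 were called lower, and the list's mean correlated with Cyp2j4 at r = 0.871, with Cyp3a9 at 0.849 and with Cyp3a18 at 0.673. For the deviations within groups these were 0.687, 0.765 and 0.069, that of Cyp3a18 being close to 0. The mean of the proliferation genes correlated with Cyp2j4 at -0.937, with Cyp3a9 at -0.833 and with Cyp3a18 at -0.859, and at -0.711, -0.397 and -0.284 for the deviations. RNA integrity, read as beta-actin's 3′ minus 5′ control signal (log2, higher in more degraded RNA), was 0.86 to 1.05 with abemaciclib at 120 mg/kg/day and 0.57 to 0.79 with vehicle. With that measure as a covariate, Cyp2j4, Cyp3a9, Cyp3a18 and Nr1i3 were still called lower than vehicle (highest adjusted p = 0.03471) and Ugt2b15 was not (adjusted p = 0.1343). The part of the cell markers was not tested. In scraped mucosa, fewer cells of a type and less RNA per cell cannot be told apart.

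Cyp1a1, the oxidase most strongly induced through AHR, had the widest spread of the 10 genes. It read 5.20, 12.92 and 9.33 on the vehicle arrays, a range of more than 7 log2 units, and its pooled standard deviation of 1.93 was exceeded by only 12 of the 14217 genes. With abemaciclib at 36 mg/kg/day it was low and even, at 5.25, 5.35 and 5.61. It read 7.20, 6.01 and 5.11 with palbociclib at 30 mg/kg/day, and 9.71, 10.03 and 8.06 at 100 mg/kg/day. It read 8.05, 7.26 and 6.41 with abemaciclib at 120 mg/kg/day, and 5.17, 5.84 and 9.14 with ribociclib. All treated groups overlapped vehicle. The 2 doses of palbociclib did not overlap, and neither did those of abemaciclib, the higher dose being higher in each case. Neither difference was called, and the share of all genes whose doses did not overlap was not counted.

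None of the 10 comparisons called Cyp1a1. The differences from vehicle were -3.75 (95% interval -6.64 to -0.86, adjusted p = 0.1909) for abemaciclib at 36 mg/kg/day, -1.91 (adjusted p = 0.4014) at 120 mg/kg/day, -2.44 (adjusted p = 0.3266) for ribociclib, -3.04 (adjusted p = 0.9983) for palbociclib at 30 mg/kg/day and 0.11 (adjusted p = 0.9859) at 100 mg/kg/day. Single vehicle arrays decided these values. Without vehicle array B the difference for abemaciclib at 120 mg/kg/day was -0.03 (adjusted p = 0.9934), and without vehicle array A it was -3.89 and was called (adjusted p = 0.02976). For abemaciclib at 36 mg/kg/day the same omissions gave -1.86 (adjusted p = 0.6423) and -5.72 (adjusted p = 0.02736). The palbociclib doses differed by 3.16 (unadjusted p = 0.03421, adjusted p = 0.9965) and the abemaciclib doses by 1.83 (adjusted p = 0.4928).

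Other AHR targets were read on the same arrays. Ahrr, the repressor that AHR itself induces, read 4.83, 6.97 and 5.92 on the vehicle arrays, in the order of Cyp1a1. On ribociclib array C, where Cyp1a1 was highest in that group, Ahrr read 5.84, against 5.04 and 5.11 on A and B. Cyp1b1, another P450 of this family, read 4.88, 5.48 and 5.04 with vehicle and 4.94, 4.93 and 5.47 with ribociclib, again in the order of Cyp1a1 with vehicle and highest on array C with ribociclib. The order differed in other groups. On array A of abemaciclib at 120 mg/kg/day Cyp1a1 was the highest of its group (8.05) and Ahrr the lowest (4.44), and with palbociclib at 100 mg/kg/day Ahrr read 4.88 to 5.31 beside Cyp1a1 signals of 8.06 to 10.03. Over the 18 arrays Cyp1a1 correlated with Ahrr at r = 0.685, with Cyp1b1 at 0.622 and with Nqo1 at 0.243. The deviations of Cyp1a1 from its group means correlated with those of Ahrr at r = 0.889, of Cyp1b1 at 0.82 and of Nqo1, a quinone reductase also controlled by other routes, at 0.542. Vehicle array B, far above the others for Cyp1a1 and Ahrr, is among these points. Those of Aldh3a1 (0.344), Tiparp (0.238), Cyp1a2 (-0.193) and Cyp2s1 (-0.071) did so weakly. Ahrr and Cyp1b1 lie near the array medians except on a few arrays.

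With abemaciclib at 120 mg/kg/day, 7 of the 8 AHR targets measured, Cyp1a1 included, had negative differences from vehicle. The median was -0.50, where that of all genes was -0.02. Among them Cyp1a2 (-0.19), Cyp1b1 (-0.28) and Aldh3a1 (-0.03) read near or below the array medians in both groups. The Cyp1a1 difference was -0.03 without vehicle array B. The calls were 1 in each direction, where 9.60% of all genes were called higher and 8.41% lower. Nqo1 was called higher than vehicle (1.54, adjusted p = 0.02088) and Ahrr lower (-1.18, adjusted p = 0.03811). Ahrr read 4.44, 5.14 and 4.59 there, so that arrays A and C lay below all vehicle arrays and array B between vehicle arrays A and C. The vehicle arrays read 4.83, 6.97 and 5.92 for Ahrr, with array B the highest, as for Cyp1a1. How far the Ahrr call rests on vehicle array B was not tested.

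**Figure D4:**
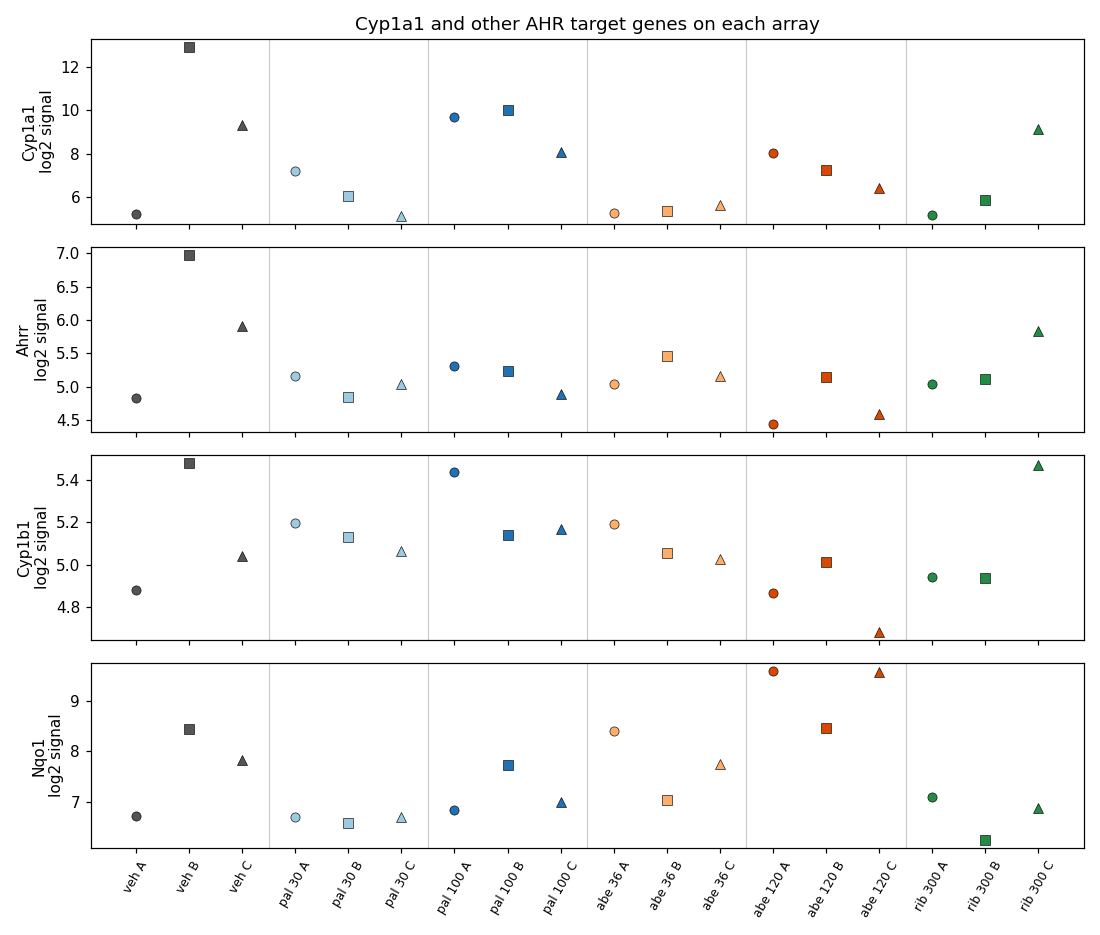
Log2 signal of Cyp1a1, Ahrr, Cyp1b1 and Nqo1 on each of the 18 arrays, ordered by group and replicate letter, with an axis of its own for each gene. Vehicle array B is the highest of the 18 for Cyp1a1 (12.92) and Ahrr (6.97), whereas Nqo1 is highest with abemaciclib at 120 mg/kg/day.

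None of the 10 genes was called for palbociclib. This held in limma for each dose against vehicle and for the doses against each other, and 0% of all genes were called in each of these comparisons. At an unadjusted p under 0.05 there were 1023 genes for palbociclib at 100 mg/kg/day, 357 at 30 mg/kg/day and 619 between the doses, of which 1, 1 and 3 were among the 10. The intervals for the P450s other than Cyp1a1 and for Nr1i3 were narrower than those for Cyp1a1 and the conjugating enzymes. They still leave room for the differences at their ends. At 100 mg/kg/day the 95% interval of the difference from vehicle was -0.51 to 0.39 for Cyp2j4, -0.39 to 0.51 for Cyp3a9, -0.50 to 0.46 for Cyp3a18 and -1.02 to 0.47 for Nr1i3.

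The compounds were also compared with each other, at doses that differed. Abemaciclib at 120 mg/kg/day lay below ribociclib at 300 mg/kg/day for 4 of the 10 genes, where 10.0% of all genes were called lower. These were Cyp2j4 (-1.16, adjusted p = 0.001486), Cyp3a9 (-1.06, adjusted p = 0.002459), Cyp3a18 (-1.30, adjusted p = 0.001117) and Nr1i3 (-1.26, adjusted p = 0.0159). The Nr1i3 call ended without abemaciclib array A (0.06651) or ribociclib array C (0.06697), and with the RNA integrity measure as a covariate (0.1004). That measure was 0.86 to 1.05 on the abemaciclib arrays and 0.41, 0.40 and 0.90 on the ribociclib arrays. Both compounds were given in the same vehicle. Ribociclib arrays read 13.81, 13.87 and 13.97 for Cyp3a9 and 12.53, 12.39 and 12.57 for Cyp3a18, all above the abemaciclib arrays. For Ugt2b15 and Ugt2b35 the same comparison gave 0.71 (95% interval -1.14 to 2.56) and -0.04 (-2.79 to 2.72), which leaves room for large differences either way.

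Against palbociclib at 100 mg/kg/day, abemaciclib at 120 mg/kg/day was lower for 8 of the 10 genes, where 6.86% of all genes were called lower; the vehicles differed here. Cyp1a1 and Nr1i2 were the exceptions. Beyond the 3 P450s and Nr1i3 (-0.97 to -1.32), the calls were Sult6b2 (-4.25, adjusted p = 0.0136), Ugt2b35 (-4.20, adjusted p = 0.03448), Ugt2b15 (-3.03, adjusted p = 0.02397) and the brighter probe set of Ahr (-1.09, adjusted p = 0.01334). The second Ahr probe set differed by -0.02 (adjusted p = 0.9515). Leaving out single arrays of these groups took the count of 8 to 4 without palbociclib array A or B, and to 5 without palbociclib array C or any 1 of the abemaciclib arrays. The RNA integrity measure was 0.86 to 1.05 on the abemaciclib arrays and 0.50 to 0.76 on the palbociclib arrays. With it as a covariate 3 calls were left, those of Cyp2j4, Cyp3a9 and Cyp3a18, and Ugt2b15 (adjusted p = 0.1263), Ugt2b35 (0.1602), Sult6b2 (0.1734), Nr1i3 (0.09933) and Ahr (0.1864) did not pass. The same Ugt2b15 difference for ribociclib against palbociclib at 100 mg/kg/day was -3.74 and narrowly missed (adjusted p = 0.05411). There 0 of the 10 genes were called, where 0.823% of all genes were. At an unadjusted limma p under 0.05 there were 2100 of the 14217 genes, of which 4 were among the 10. This comparison shares its palbociclib arrays with the one before.

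For each gene the 3 genes with the most similar signal over the 18 arrays were found. Cyp2j4 was closest to Gdpd2 (r = 0.969), Slco2a1 (0.959) and Plek (0.943), and Cyp3a18 to Cd36 (0.968), Slc22a4 (0.955) and RT1-Da (0.954). Cyp3a9 was closest to Itm2b (0.967), Serinc3 (0.967) and Dnpep (0.965), and Nr1i3 to Flvcr2 (0.964), Ccdc28a (0.945) and Hbp1 (0.944). Ugt2b15 was closest to Galt (0.95), and Sult6b2 to Reg1a (0.922). The closest genes to Cyp1a1, Slc26a5 (0.704) and Blk (0.697), Nr1i2, Nlrp6 (0.833), and Ahr, Adamtsl4 (0.848), were less alike. Among the 10, Cyp2j4 correlated with Cyp3a18 at 0.904 and with Cyp3a9 at 0.875, and Cyp3a9 with Nr1i3 at 0.789. All these values are over arrays that share groups.

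Wider classes of drug metabolism genes place the 10 beside their relatives, first for abemaciclib at 120 mg/kg/day against vehicle, where 8.41% of all genes were called lower and 9.60% higher. Counts near these shares, such as 3 of 35, do not set a class apart. Of 35 other P450s measured, 3 were called lower and 0 higher, with a median difference of -0.13. The 3 were Cyp2d2 (-2.20, adjusted p = 0.006683), Cyp2d4 (-1.10) and Cyp2d3 (-0.79), close relatives whose probe sets may share signal. Cyp2d3 read below the array medians in both groups. Of 40 other phase I enzymes, 12 were lower and 2 higher (median -0.22), among them Adh4, an alcohol dehydrogenase (-3.83, adjusted p = 0.0005021), and Akr1b8, an aldo-keto reductase (-1.36, adjusted p = 0.0001652). Of 7 other genes of the UDP-glycosyltransferase family or UDP-glucose metabolism, Ugt2b10 (-1.17) and Ugt2a1 (-0.81) were lower. Ugt8 (0.67), which is not a glucuronosyltransferase, was higher. Ugt8 lay below the array medians in both groups, and Ugt2a1 and Adh4 did so with abemaciclib, so these sizes rest on signals not shown to be above background. Of 15 other sulfotransferase genes, Sult1b1 (-0.48) alone was called.

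Among the transporters, 6 of 31 were lower and 2 higher; Slco2a1, a prostaglandin carrier, had a difference of -3.49, and Slc22a4, which carries ergothioneine, of -3.10. Of 32 glutathione transferase and other conjugation genes, 2 were lower and 1 higher (median 0.06). Among 40 receptors and partner proteins, 7 were lower and 3 higher, including Ppargc1a, a coactivator of nuclear receptors (-1.96), Pparg (-1.84) and Hsp90ab1, a chaperone (1.51). Of 20 known PXR and CAR targets, 4 were lower and 0 higher. These were Cyp3a9, Cyp3a18, the efflux pump Abcc2 (-1.61) and the epoxide hydrolase Ephx1 (-2.10). Cyp3a9 and Cyp3a18 belong to the genes described here, which were chosen with earlier results of these data known. The calls beyond them, Abcc2 and Ephx1, do not set the list apart from all genes, of which 8.41% were called lower. Cyp3a23-3a1, a classical PXR target, differed by -2.65 and was not called (adjusted p = 0.2167), its vehicle standard deviation being 2.34.

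**Figure D5:**
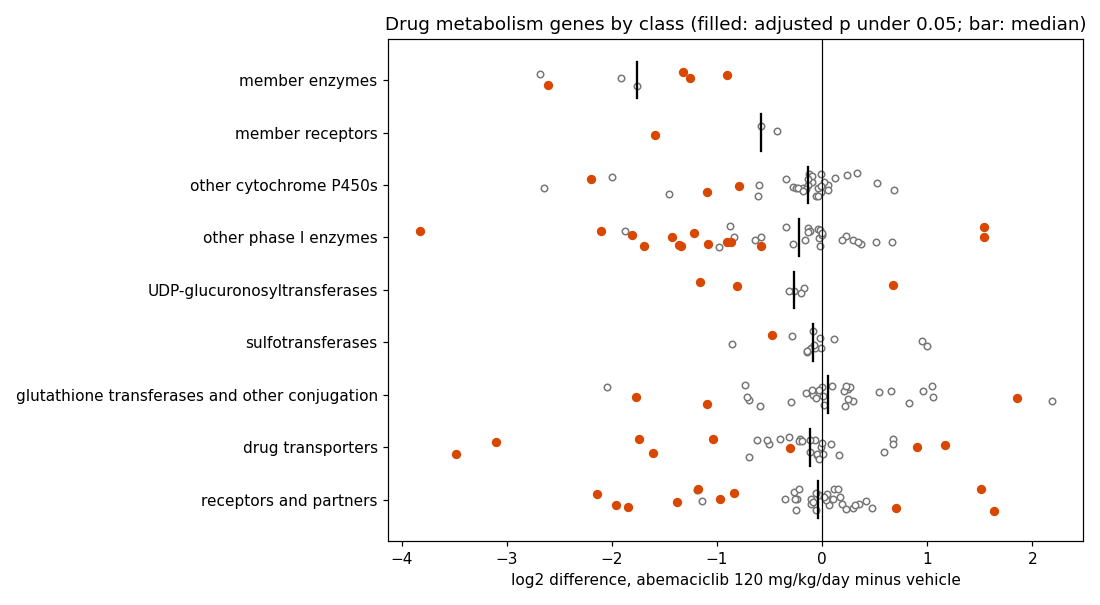
Log2 difference between abemaciclib at 120 mg/kg/day and vehicle for the 7 enzymes and 3 receptors described here and for wider classes of drug metabolism genes, 1 point per gene, filled where the adjusted p was under 0.05, with a bar at each class median. The classes of other genes are centred between -0.27 and 0.06, with called genes on both sides in several of them.

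In the other treated groups all calls in these classes were lower. With abemaciclib at 36 mg/kg/day these were 3 of 32 glutathione transferase and other conjugation genes and 1 of 40 phase I enzymes. There were also 1 of 31 transporters and 1 of 40 receptors and partners, where 1.58% of all genes were called lower. With ribociclib they were 3 of 40 receptors and partners, 2 of 31 transporters and 1 of 40 phase I enzymes. Of the 32 conjugation genes 1 was called, and 2.74% of all genes were called lower. Those named by the rule of smallest p follow, with 1 further call left unnamed in each group. With abemaciclib at 36 mg/kg/day, Fmo4, a flavin monooxygenase (-1.66, adjusted p = 0.00491), the N-acetyltransferases Nat2 (-1.97) and Nat1 (-1.14), the transporter Slco4a1 (-1.66) and Ppargc1a (-1.94, adjusted p = 0.002902) were lower. With ribociclib, Fmo4 (-1.48), Slco4a1 (-1.59), Ppargc1a (-2.47, adjusted p = 0.0005468), Slc16a1 (-2.07), Mgst3 (-0.82) and Cdx2, a transcription factor of the gut epithelium (-1.34), were lower. Both comparisons share the vehicle arrays. No PXR or CAR target and no AHR target was called in either group, out of 20 and 8 measured. At shares such as 1.58% and 2.74%, lists of this length can hold no call.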

How the data were processed

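The deposited values are log2 signals from 2.86 to 14.34, with 1 value for each probe set on each array. Per the submitters' processing notes, the authors used RMA with Affymetrix Expression Console, and also Transcriptome Analysis Console (no versions given). RMA as usually run gives all arrays the same signal distribution, so a change in total RNA per cell would not show. No 2 arrays were identical (r from 0.91 to 0.993). Their number, 3 per group, limits the precision. The title of 1 abemaciclib array, array B of the group at 120 mg/kg/day, names another dose than its treatment label, which was used. That array stood nearest to vehicle in its group for Cyp3a9, and the Ugt2b15 call against vehicle ended without it. The calls of Cyp2j4, Cyp3a9, Cyp3a18 and Nr1i3 against vehicle held without it.

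Of 31099 probe sets, 57 controls were left out, and 20826 had 1 symbol, 436 several and 9780 none in the platform table. A gene was read from its probe set with the highest mean. limma 3.58.1 in R 4.3.3 fitted 1 mean per group over 18 arrays (12 residual degrees of freedom; eBayes, trend on); p-values are two-sided, over 14217 genes and 10 comparisons, at a threshold of 0.05. With 3 arrays a side, the smallest exact permutation p is 0.1. Tables were made in Python 3.11.15 (pandas 2.3.3, numpy 2.4.6), and the limma script was first tested on simulated arrays.

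The 10 genes, the gene lists and the tests were chosen with earlier results of these data known. Genes named beside the 10 are, per list, up to 4 with the smallest p for abemaciclib at 120 mg/kg/day and up to 2 in other comparisons with vehicle, and up to 3 similar genes for each of the 10; the AHR targets and the genes of gut position were read one by one.

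Alternatives were quantile re-normalization, median centring, the mean of probe sets, every probe set, a filter at the 30th percentile of mean signal, no trend, only the groups compared, the replicate letter as a block, an RNA quality covariate, and leaving out each array. Same letters did not pair the arrays.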

Additional observations from a re-analysis of the deposited data

How the results depend on the processing

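Cyp2j4, Cyp3a9, Cyp3a18 and Nr1i3 were called lower with abemaciclib at 120 mg/kg/day than with vehicle in all 9 alternatives and all 18 fits with 1 array left out; adjusted p did not exceed 0.04631. Over 100 pairs of gene and comparison, 21 were called, 7 more in at least 1 other fit, and none of these 28 changed direction; of the 72 never called, 26 changed sign in some fit. The cause of the following was not tested. With the RNA quality covariate the genes called numbered 2 between the 6 groups, 0 for abemaciclib at 36 mg/kg/day and 0 for ribociclib against vehicle, 1 between the abemaciclib doses and 3 for abemaciclib at 120 against palbociclib at 100 mg/kg/day. Quantile re-normalization, median centring, every probe set and only the groups compared each gave 0 for abemaciclib at 36 mg/kg/day and 0 for ribociclib, where no intensity trend also gave 0. Only the groups compared gave 0 between the abemaciclib doses. Ribociclib against palbociclib at 100 mg/kg/day had 1 under quantile re-normalization, median centring, the filter on dim genes and the replicate letter as a block, which moved no other count by over 1.5 times. Leaving out 1 array, the counts ranged from 0 to 1 for abemaciclib at 36 mg/kg/day, 0 to 1 for ribociclib, 4 to 8 for abemaciclib at 120 against palbociclib at 100 mg/kg/day and 0 to 1 for ribociclib against palbociclib. Deviations of same-lettered arrays correlated at -0.31 to 0.59 (median 0.05), over 0.1 in 19 of 45 pairs, and 7 of 18 arrays were closest to their own letter. Ahr lies below the percentile filter and has no value there. Signals near the array medians, as for Ahr, Ahrr, Cyp1b1, Cyp2d3, Ugt8, Ugt2a1 and the low arrays of Ugt2b15, Ugt2b35 and Cyp1a1, are not shown to be above background. The same holds for the low arrays of Pdx1 and Onecut2 and the low means of the stem and macrophage lists.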
